A study of Arabidopsis thaliana with 12 samples.

Results

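The core of the chromosome 1 pericentromere is the stretch within 1 Mb of a centromere position set at 15 Mb. Its members were the regions of 500 bases that were listed on chromosome 1 in both deposited small RNA tables with a start in that stretch. There were 584 of them, out of 4213 regions listed in both tables over all chromosomes. The first table listed 752 regions there and the second 594. Small RNA was sequenced from total RNA of Arabidopsis thaliana seedlings 10 days old, grown on plates at 22 °C under 16 h of light and 8 h of dark a day. The 12 libraries covered 6 genotypes with 2 replicates each. These were wild type (WT), the triple mutant arid2/3/4, the double mutant epcr1/2, and the single mutants nrpd1, nrpe1 and hda6. For hda6 the genotype labels of the replicates are spelled in 2 ways, and the sample titles were followed. Whole seedlings were used, so every score is a mix over tissues, and the files hold no transcript levels of the mutated genes.

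The chromosomal neighbourhood of a plant centromere is packed as heterochromatin and is rich in satellite arrays and decayed transposons. In Arabidopsis such sequence is kept silent partly by RNA-directed DNA methylation. In that pathway RNA polymerase IV, whose largest subunit is NRPD1, makes the precursors of 24-base small interfering RNAs (siRNAs). RNA polymerase V, whose largest subunit is NRPE1, makes the scaffold transcripts that the siRNAs recognise. HDA6 is a histone deacetylase that acts in silencing of transposons and other repeats. ARID and EPCR proteins are components of PEAT complexes, and the series title links these complexes to histone deacetylation and heterochromatin silencing. The mutants allow a comparison of siRNA levels at the same repeats when each of these steps is impaired.

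Most of the listed regions of the core consisted of tandem repeats. Aligning each region to itself gave 159 bases as the most frequent spacing of a tandem repeat, in 163 regions. Among spacings more than a few bases away from it, the length of the Arabidopsis centromere satellite was the most frequent, in 12 regions. The first pair of sequences shows a 159-base unit at chr1:15021001-15021159 and the unit that follows it at chr1:15021160-15021318, both read on the plus strand of the RefSeq TAIR10.1 assembly. Capitals mark the 11 bases at which these neighbours differ.
159-base unit: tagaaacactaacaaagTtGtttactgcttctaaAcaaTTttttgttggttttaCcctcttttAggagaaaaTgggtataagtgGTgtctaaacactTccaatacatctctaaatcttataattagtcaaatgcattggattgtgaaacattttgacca
next 159-base unit: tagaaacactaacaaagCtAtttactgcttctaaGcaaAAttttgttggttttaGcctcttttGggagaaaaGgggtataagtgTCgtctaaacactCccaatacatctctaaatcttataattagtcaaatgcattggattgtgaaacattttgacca
The next pair shows a satellite unit at chr1:15082001-15082178 and its neighbour at chr1:15082179-15082356, with capitals at the 6 bases that differ.
satellite unit: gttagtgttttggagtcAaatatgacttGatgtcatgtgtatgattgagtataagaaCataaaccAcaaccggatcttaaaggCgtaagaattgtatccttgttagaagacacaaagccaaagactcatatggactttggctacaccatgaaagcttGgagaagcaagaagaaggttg
next satellite unit: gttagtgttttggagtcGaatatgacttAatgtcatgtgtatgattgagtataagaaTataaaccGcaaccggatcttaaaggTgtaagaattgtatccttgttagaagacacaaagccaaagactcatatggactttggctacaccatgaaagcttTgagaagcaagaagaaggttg
The 159-base units shown contained 0 and 1 CG dinucleotides, whereas the satellite units contained 2 and 3. CG is the dinucleotide at which plant DNA methylation is copied most directly at replication.

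The remaining regions carried neither unit over at least 50% of their length. A pair of them is shown because they mark opposite ends of the responses described below. The first 200 bases of the annotated pseudogene region most raised in arid2/3/4 lie at chr1:15417501-15417700, within AT1G40310, and hold 59% G and C with 11 CG dinucleotides (capitals).
AT1G40310 region: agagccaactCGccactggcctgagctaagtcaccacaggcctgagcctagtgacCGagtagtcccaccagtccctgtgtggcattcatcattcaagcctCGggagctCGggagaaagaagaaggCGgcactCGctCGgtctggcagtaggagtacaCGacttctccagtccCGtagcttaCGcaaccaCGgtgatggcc
The first 200 bases of the region most lowered in nrpe1 lie at chr1:15940001-15940200, between annotated genes, and hold 25% G and C with 2 CG dinucleotides (capitals).
AT-rich region: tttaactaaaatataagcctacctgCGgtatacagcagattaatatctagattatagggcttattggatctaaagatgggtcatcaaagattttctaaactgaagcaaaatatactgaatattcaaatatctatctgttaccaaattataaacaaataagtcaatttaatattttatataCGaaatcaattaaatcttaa

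The 159-base class held 343 regions, 58.7% of the core, all between chr1 positions 14608501 and 15053500. Of the 404 windows of the core that carry this unit, 84.9% were listed as siRNA regions in both tables. The satellite class held 29 regions, and only 8.84% of the 328 windows with that unit were listed. The other 212 regions were 7.19% of the 2947 remaining windows. A further 321 windows hold only unknown bases in the assembly, so the satellite array itself is not fully represented. The rule for these classes was set after sequences and scores had been seen, so the classes are described by counts and medians below and are not themselves tested.

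**Figure D1:**
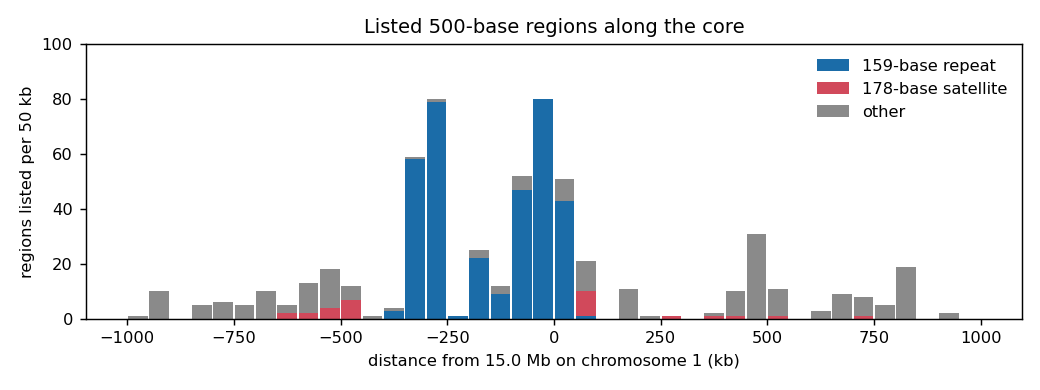
Number of listed regions of 500 bases in each bin of 50 kb (y axis) against distance from the 15 Mb position on chromosome 1 (x axis, kb), stacked by sequence class. The 159-base repeats fill 2 blocks from the left flank to the centre, while the other regions are spread over both flanks.

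The classes differed in composition and copy number. Median G and C content was 31.8% in the 159-base class, with a range of 28.2% to 41.0%, against 36.2% in the satellites and 39.2% in the other regions. A 159-base region held a median of 2 CG dinucleotides over the 339 regions without unknown bases, a satellite region 10 and another region 11. Words of 24 bases, about the length of an siRNA, occurred a median of 14 times in the genome for the 159-base class, 3 times for the satellites and 21 times for the other regions. None of the 584 regions was mostly single-copy, and the highest share of single-copy words was 64.8%. The labels and files do not state how reads that map to several places were treated, so neighbouring windows of an array may hold the same reads. Regions sharing at least 50% of their words fell into 283 families, and the windows of 1 family are not independent observations.

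Listed regions clustered in runs, and few of them lay in annotated protein-coding genes. The 584 regions formed 181 runs, of which 72 were single windows and 7 held at least 10 windows. The longest run, 46 windows from 14723501 to 14746500, and the second, 44 windows from 14930001 to 14952000, lay in the 159-base arrays. In the 159-base class 299 regions overlapped no annotated protein-coding gene, pseudogene or 1 kb upstream stretch. A further 36 overlapped the body of a protein-coding gene and 3 a pseudogene. The gene models in these arrays were AT1G39060, AT1G39070, AT1G40086 and AT1G40090. By contrast, 59 of the 212 other regions overlapped an annotated pseudogene. The annotation used here has no separate class of transposable element, so transposons inside or outside these pseudogenes could not be counted.

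In wild type the scores of the 3 classes were of similar size. The deposited score was taken to be an abundance that the authors normalized and rounded to whole numbers. Its scale is left unstated by the labels and files. The median score of the 159-base class was 234 in WT replicate 1 and 207 in replicate 2. The satellites had medians of 195 and 165, and the other regions 188.5 and 137.5. A single block of satellite at 15082001 to 15086500 stood far above the rest. Its 8 satellite windows had WT medians of 1923 and 1651.5, while the 21 satellite windows elsewhere had 161 and 145. The block lies in the partial gene model AT1G40104 and holds all of the 5 regions with the highest WT scores of the core. The top one, at 15085501, scored 2427 and 2037 in WT.

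In nrpd1, which lacks RNA polymerase IV activity, the core was almost empty. The median score was 1 in replicate 1 and 0 in replicate 2, the highest scores were 47 and 8, and 64 and 380 of the 584 regions stood at 0. The highest ratio of nrpd1 to WT in any region was 0.0729 in replicate 1 and 0.0333 in replicate 2. The lowest WT scores were 96 and 99. The regions appear to have been picked for a high WT and a low nrpd1 score, so these values describe the selection and were not tested. The same WT libraries enter every comparison with WT below, so the lowered calls in hda6, nrpe1 and arid2/3/4 start from WT values that appear to have been part of the choice. How far this moves those calls was not tested.

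**Figure D2:**
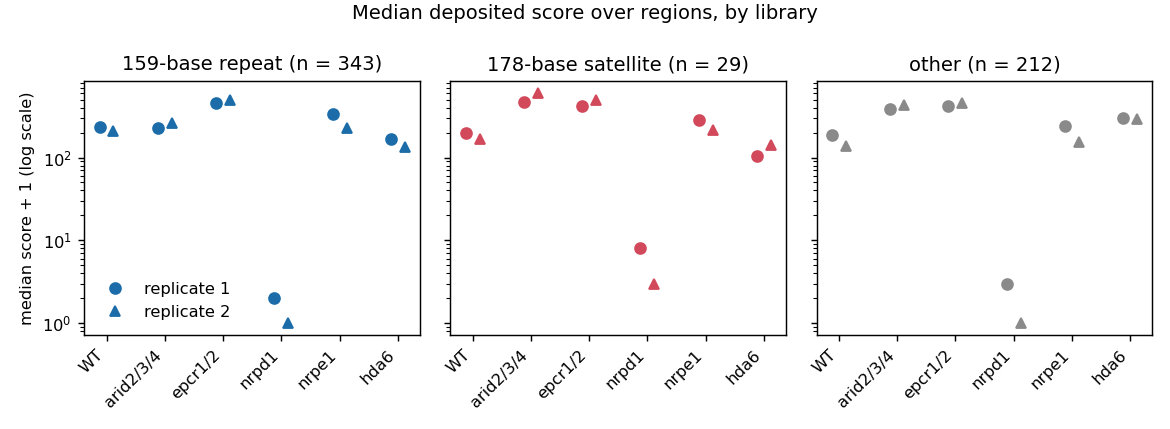
Median deposited score plus 1 over the regions of each class (y axis, log scale) in each of the 12 libraries (x axis, genotype), with circles for replicate 1 and triangles for replicate 2. The 159-base class in arid2/3/4 stays near WT at 226 and 259 while its epcr1/2 medians are 461 and 491, and the satellites and other regions are high in both mutants.

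Nearly the whole core was raised in epcr1/2. The 159-base class had median scores of 461 and 491 in this mutant against 234 and 207 in WT. The satellites had 414 and 500, and the other regions 414 and 450. A region is called raised or lowered where limma, fitted to log2(score + 89) over all 4213 regions, gave a Benjamini-Hochberg adjusted p under 0.05. With this test 572 of the 584 regions were raised and 2 lowered, where 52.2% of all tested regions were raised and 14.8% lowered. The median fitted log2 change was 0.91 in the core and 0.48 over all tested regions. Within the core all 343 of the 159-base regions were raised, with a median of 0.87 and a range of 0.58 to 1.10. So were 28 of 29 satellites (median 1.10) and 201 of 212 other regions (median 1.03). In whole seedlings more cells with an siRNA and more siRNA per cell cannot be told apart, and the same holds for decreases. When libraries were scaled to a common median the count fell to 454, which includes 246 of the 159-base regions, and with quantile normalization it was also 454, with 235 of them.

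Most of the satellites and of the other regions were raised in arid2/3/4, but not the 159-base arrays. In the 159-base class its median scores were 226 and 259, against 234 and 207 in WT, so the replicates of the 2 genotypes overlapped. Among the satellites the medians were 469 and 609 against 195 and 165, and in the other regions 386 and 426.5 against 188.5 and 137.5, with no overlap. In the limma fit 222 of the 584 regions were raised and 6 lowered, where 38.7% of all tested regions were raised and 28.9% lowered. Of the raised regions, 194 were among the 212 others (median log2 change 0.98) and 26 among the 29 satellites (1.25). Only 2 were among the 343 regions of the 159-base class, at 14956001 (adjusted p = 0.04568) and 14984001 (adjusted p = 0.04892), with a class median of 0.12 and a range of -0.38 to 0.36. Of the 343, 21 were raised without either nrpe1 replicate, 7 without arid2/3/4 replicate 1, 1 without either WT replicate and 0 without arid2/3/4 replicate 2 or either nrpd1 or hda6 replicate. Directions in the 159-base class depend on the scaling of libraries. With a common median 164 of the 343 were lowered and 0 raised, and with quantile normalization 185 were lowered and 42 raised.

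The contrast between classes was seen inside each arid2/3/4 library. The median log2 ratio to WT was higher in the other regions than in the 159-base class by 0.75 in replicate 1 and 0.93 in replicate 2. The satellites stood above the 159-base class by 1.10 and 1.21. A factor applied to a whole library cancels in such a difference, up to the pseudocount. The corresponding values for epcr1/2 were 0.04 and 0.29 for the other regions and 0.18 and 0.28 for the satellites. With quantile normalization they rose to 0.19 and 0.51 and to 0.38 and 0.33, where those of arid2/3/4 were 0.85 and 1.10 and 1.03 and 0.99.

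**Figure D3:**
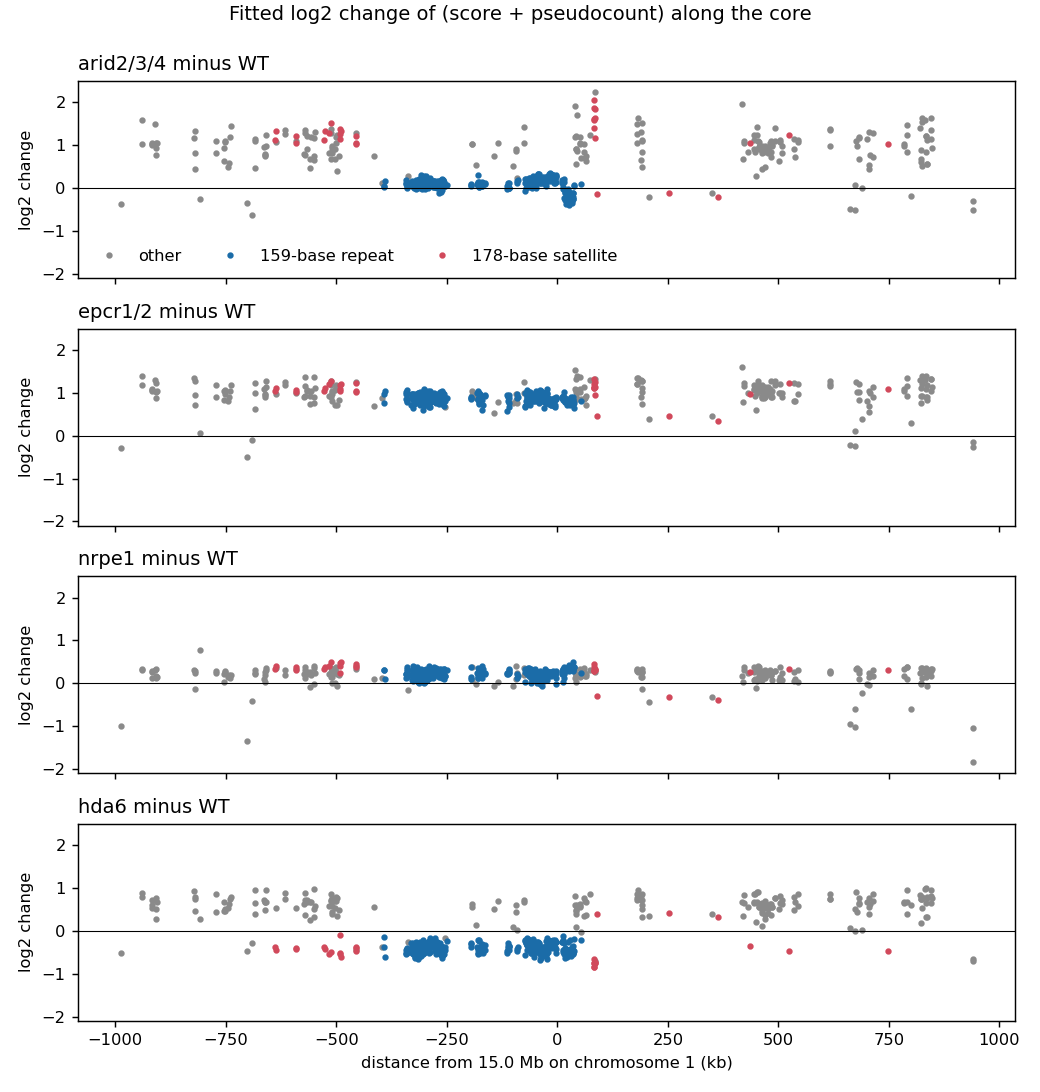
Fitted log2 change against WT (y axis) of each of the 584 regions by distance from 15 Mb (x axis, kb), 1 panel for each mutant, coloured by sequence class. In arid2/3/4 the 159-base repeats lie between -0.38 and 0.36 beside raised regions of the other classes, and in hda6 they lie below 0 beside raised other regions.

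Within the 159-base class the arid2/3/4 values differed by position. The 299 regions left of 15 Mb had median scores of 228 and 262 in arid2/3/4 and 234 and 202 in WT. The 44 regions right of it had 211 and 228 in arid2/3/4 and 251.5 and 278.5 in WT, so that both mutant values lay under both WT values. The median fitted change was 0.13 on the left and -0.14 on the right, and 0 of the 44 passed the limma test. In epcr1/2 both stretches were raised throughout, with medians of 0.88 and 0.82. In the longest run the WT medians were 290.5 and 257.5, the arid2/3/4 medians 278 and 312.5, and the epcr1/2 medians 593 and 600.5. All 46 of its windows were raised in epcr1/2. The second run had 231.5 and 191 in WT, 231.5 and 253 in arid2/3/4 and 453.5 and 453 in epcr1/2, and all 44 windows were raised in epcr1/2.

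The windows nearest to 15 Mb belong to the same arrays. The region at 14998001 scored 148 and 154 in WT, 160 and 196 in arid2/3/4, 323 and 393 in epcr1/2 and 91 and 89 in hda6. It was raised in epcr1/2 (log2 change 0.89, SE 0.168, limma adjusted p = 4.812e-07) and lowered in hda6 (-0.42, adjusted p = 0.02018). The next regions, at 14997501 and 14997001, were also raised in epcr1/2, by 0.85 and 0.89. Their arid2/3/4 values of 0.29 and 0.30 did not pass the test.

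The direct comparison of the PEAT mutants showed the 159-base class to be lower in arid2/3/4 than in epcr1/2. In the limma fit 355 core regions were lower in arid2/3/4 and 2 higher, where 23.6% of all tested regions were lower and 6.81% higher. Of the 355, 340 were in the 159-base class, with a median difference of -0.78. Only 3 of the 29 satellites and 12 of the 212 other regions were lower, and the median differences were 0.11 and -0.08. Without replicate 1 of arid2/3/4 the 355 became 190, of which 188 were in the 159-base class. With a common median 334 of the 343 were lower, and with quantile normalization 274.

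The largest such difference was at 15027001, in the right-hand array. It scored 295 and 305 in WT, 193 and 226 in arid2/3/4 and 541 and 679 in epcr1/2. The WT values lay between those of the mutants, without overlap. The difference between the mutants was -1.22 on the log2 scale (limma adjusted p = 3.538e-09), and the fitted change of arid2/3/4 against WT was -0.38 (adjusted p = 0.0646). The next largest, at 15019501 (-1.21) and 15032501 (-1.19), were in the same array. Both regions higher in arid2/3/4 than in epcr1/2 were in or beside the satellite block, at 15086001 (0.92) and 15083501 (0.73).

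The satellite block had the highest scores of the core in arid2/3/4. Its 8 satellite windows had medians of 5177 and 6417 in arid2/3/4, 3835.5 and 4436 in epcr1/2, 2810.5 and 1738.5 in nrpe1 and 1022.5 and 1099 in hda6, against 1923 and 1651.5 in WT. All 8 were raised in arid2/3/4 (median log2 change 1.62) and in epcr1/2 (1.13), and 7 were lowered in hda6 (-0.75). The window at 15083501 scored 1128 and 1130 in WT, 4420 and 5569 in arid2/3/4, 2783 and 3142 in epcr1/2 and 507 and 673 in hda6. Its log2 change was 2.05 in arid2/3/4 (SE 0.279, limma adjusted p = 3.013e-12) and -0.85 in hda6 (adjusted p = 0.005083). The window that ends the block, at 15086001, had the largest arid2/3/4 change of the core, 2.24, but 455 of its 500 bases are unknown in the assembly and it was not assigned to the satellites. Its scores were 275 and 218 in WT and 1334 and 1675 in arid2/3/4.

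Satellite windows away from the block went the same way at lower levels. The 21 windows had medians of 161 and 145 in WT, 381 and 487 in arid2/3/4, 373 and 421 in epcr1/2 and 78 and 116 in hda6. In arid2/3/4 18 of them were raised, and in hda6 17 were lowered. The most single-copy region of the core, at 15436501, is a satellite of this kind. It scored 123 and 99 in WT, 276 and 376 in arid2/3/4, 280 and 332 in epcr1/2 and 53 and 80 in hda6, with no overlap between WT and any of these mutants. Its changes were 1.05 in arid2/3/4 (SE 0.167, limma adjusted p = 2.72e-09), 0.98 in epcr1/2 (3.28e-08) and -0.37 in hda6 (0.04154).

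The exceptions among the satellites in arid2/3/4 were windows with satellite over about 50% of their length. The 3 satellite regions not raised in arid2/3/4, at 15089001, 15252001 and 15363501, and a pair of the other regions, at 15207001 and 15350001, had 47.8% to 54.2% of their bases in satellite. Their scores were almost the same in every library. The region at 15089001 scored 204 and 106 in WT, 135 and 123 in arid2/3/4, 243 and 238 in epcr1/2, 163 and 59 in nrpe1 and 218 and 231 in hda6. Its replicates overlapped between WT and arid2/3/4. In nrpe1 the regions at 15207001 (-0.43, limma adjusted p = 0.02081) and 15363501 (-0.38, adjusted p = 0.0452) were lowered. These windows were grouped after their values had been seen, and a negative fitted change in arid2/3/4 was part of the choice. Raised windows with a similar share of satellite, if any, are not shown. Whether that share goes with the response was thus not tested.

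In hda6 the classes moved in opposite directions. The 159-base class had median scores of 165 and 134 against 234 and 207 in WT, and the satellites 103 and 139 against 195 and 165. The other regions had 297.5 and 291 against 188.5 and 137.5. In none of the classes did the medians of WT and hda6 overlap. In the limma fit 176 of the 212 other regions were raised (median log2 change 0.63), with 2 satellites and, also at an unadjusted p under 0.05, 0 of the 159-base class, where 25.2% of all tested regions were raised. Lowered regions numbered 217 in the core, where 46.4% of all tested regions were lowered. Of these 186 were of the 159-base class (median -0.40, range -0.68 to -0.13) and 24 were satellites (median -0.47). Inside a library the other regions stood above the 159-base class by 0.85 in replicate 1 and 1.18 in replicate 2.

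The lowered count in hda6 rests on all 4 libraries of the comparison. The 217 became 64 without WT replicate 1, 81 without WT replicate 2, 6 without hda6 replicate 1 and 42 without hda6 replicate 2, while the raised regions became 108 without WT replicate 2 and 79 without hda6 replicate 2. In the same order the 24 lowered satellites became 4, 6, 0 and 3. The median fitted change over these 4 fits stayed between -0.44 and -0.36 in the 159-base class, between -0.55 and -0.39 in the satellites and between 0.51 and 0.75 in the other regions.

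**Figure D4:**
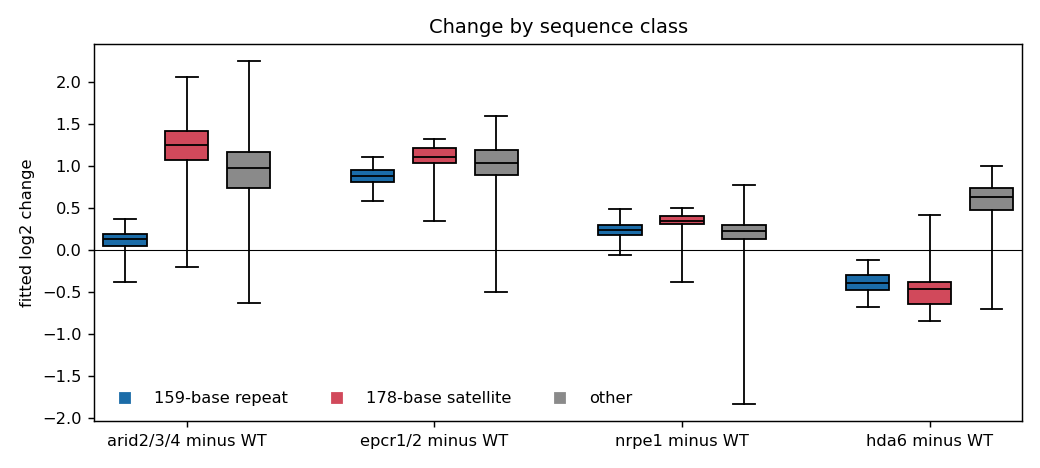
Fitted log2 change against WT (y axis) by sequence class in 4 mutants (x axis), with boxes from the lower to the upper quartile, a line at the median and whiskers over the whole range of 343, 29 and 212 regions. The 159-base box lies near 0 in arid2/3/4 (median 0.12) and near 1 in epcr1/2 (median 0.87), and in hda6 the other regions (median 0.63) stand opposite the repeats (-0.40 and -0.47).

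The regions most raised in hda6 carried repeated sequence outside the tandem classes. The region at 15834001 scored 348 and 220 in WT, 665 and 620 in hda6, 752 and 791 in arid2/3/4 and 832 and 908 in epcr1/2. Its hda6 change was 0.99 (SE 0.213, limma adjusted p = 3.227e-05). The region at 14450501, in the same family of shared words, had 369 and 232 in WT and 696 and 639 in hda6. Another family holds the regions in the pseudogenes AT1G42365, at 15832501, and AT1G42375, at 15844501. The first scored 205 and 118 in WT and 442 and 355 in hda6, and the second 207 and 123 and 443 and 352. Their hda6 changes were 0.98 and 0.95, and in arid2/3/4 they were raised by 1.60 and 1.65.

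Most of the pseudogene regions outside the repeat arrays were raised in both PEAT mutants and in hda6. Of 59 such regions 56 were raised in arid2/3/4 (median log2 change 1.05), 58 in epcr1/2 (1.05) and 50 in hda6 (0.66), and 1 in nrpe1. The 147 regions of the same class outside pseudogenes, protein-coding genes and 1 kb upstream stretches went the same way. Of these, 133 were raised in arid2/3/4 (0.93), 137 in epcr1/2 (1.01) and 122 in hda6 (0.61). Over all tested regions 38.7%, 52.2% and 25.2% were raised in these mutants. The 3 pseudogene regions of the 159-base class were raised in epcr1/2 and did not pass the test in arid2/3/4. The region in AT1G40310 whose sequence is shown above scored 189 and 106 in WT, 940 and 717 in arid2/3/4, 570 and 664 in epcr1/2, 220 and 135 in nrpe1 and 333 and 239 in hda6. All scores in arid2/3/4, epcr1/2 and hda6 lay above both WT scores. Its changes were 1.97 in arid2/3/4 (SE 0.193, limma adjusted p = 8.017e-22) and 1.60 in epcr1/2 (adjusted p = 2.04e-14). The region in AT1G40093, at 15040501, scored 113 and 106 in WT, 656 and 669 in arid2/3/4 and 453 and 525 in epcr1/2, changes of 1.92 and 1.54. The region in AT1G40095, at 15044501, changed by 1.70 and 1.40. Outside pseudogenes, the region at 14060001, 25 bases from AT1G37036, scored 320 and 204 in WT, 920 and 986 in arid2/3/4 and 785 and 861 in epcr1/2.

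The regions with the most single-copy sequence in the assembly had the calls of their class. Copies in unknown stretches of the assembly are not counted, so this share may be too high for the satellites among them. The region of the remaining class with most such sequence, at 15616001, had 63.7% of its words once in the genome. It scored 163 and 111 in WT, 483 and 501 in arid2/3/4, 414 and 439 in epcr1/2 and 279 and 291 in hda6, and was raised in all 3 (1.37, 1.20 and 0.74). The satellite at 15525001, with 61.2%, was raised by 1.25 in arid2/3/4 and 1.24 in epcr1/2 and had -0.47 in hda6 (limma adjusted p = 0.02128). Over the 16 regions whose median word occurred once, 11 were raised in arid2/3/4, 16 in epcr1/2, 3 in hda6 and 8 lowered in hda6.

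Few regions of the core were lowered in nrpe1. The 159-base class had median scores of 336 and 224 in nrpe1, the satellites 280 and 213 and the other regions 239.5 and 155. In each class both replicates were above the WT score of the same replicate. In the limma fit 11 of the 584 regions were lowered and 12 raised, where 44.3% of all tested regions were lowered and 1.02% raised. In the cores of chromosomes 2 to 5, 20 of 141, 27 of 189, 19 of 348 and 24 of 539 regions were lowered. The median fitted log2 change was 0.24 in the core and -0.09 over all tested regions. The core made up 20.3% and 19.9% of the summed nrpe1 scores of the tested regions, against 11.4% and 12.1% of those of WT. The count of raised regions depends on scaling and on single libraries. It was 558 with a common median, 565 with quantile normalization and 378 without nrpe1 replicate 2, and from 1 to 6 without either WT, nrpd1 or hda6 replicate or nrpe1 replicate 1. The 11 lowered became 6 without WT replicate 1 and 7 without nrpe1 replicate 2.

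Of the 11 regions lowered in nrpe1, 7 had under 32% G and C and the other 4 had up to 39.8%. Among the 212 other regions, 11 had under 32% G and C, a limit set after the scores were seen. The 7 were all in this group, with 19.4% to 30.2% G and C, and 1 region of it was raised. Of the 201 richer regions 3 were lowered, and so was 1 of the 29 satellites. The 159-base class held 191 regions under 32%, and 0 of its 343 regions were lowered in the limma fit, also at an unadjusted p under 0.05.

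**Figure D5:**
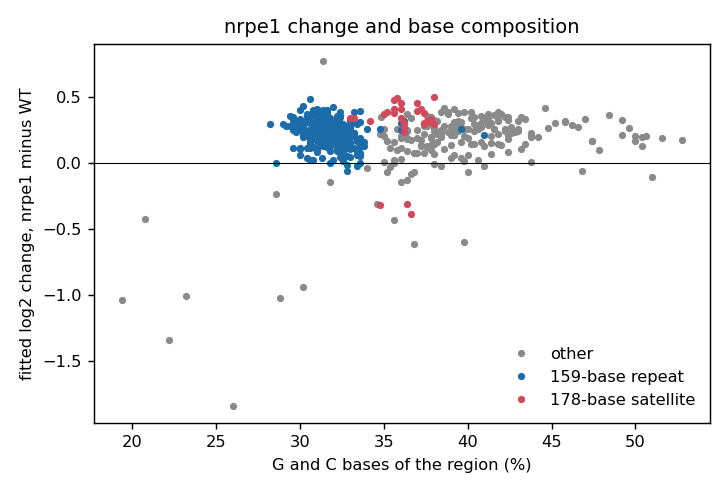
Fitted log2 change in nrpe1 against WT (y axis) of each region against its share of G and C bases (x axis, %), coloured by sequence class. The lowest points, from -1.83 to -0.94, are other regions with 19.4% to 30.2% G and C, and the 159-base repeats, with 28.2% or more, lie near their median of 0.24.

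The region most lowered in nrpe1, at 15940001, scored 488 and 466 in WT, 86 and 55 in nrpe1, 325 and 426 in arid2/3/4, 354 and 407 in epcr1/2 and 233 and 291 in hda6. Its sequence is shown above, and in WT it was the highest of the other regions. The change was -1.83 in nrpe1 (SE 0.186, limma adjusted p = 5.106e-22) and -0.69 in hda6 (adjusted p = 0.0007597). The adjoining region at 15939501 scored 149 and 196 in WT and 49 and 28 in nrpe1 (-1.04). Both lie near the protein-coding gene AT1G42480, at 1027 and 527 bases.

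The other strongly lowered regions lay on both flanks. The region at 14297501 scored 279 and 188 in WT and 49 and 26 in nrpe1 (-1.34, SE 0.152, limma adjusted p = 4.751e-18). It was also lowered in arid2/3/4 (-0.35), epcr1/2 (-0.50) and hda6 (-0.48). The region at 14013001, the first of the core, scored 106 and 119 in WT and 14 and 9 in nrpe1, and it too was lowered in all 4 mutants. The region at 15674501 scored 223 and 140 in WT, 55 and 32 in nrpe1 and 93 and 104 in arid2/3/4. The region at 15663001 scored 240 and 158 in WT and 71 and 49 in nrpe1 (-0.94).

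All 6 regions lowered in arid2/3/4 were among these AT-rich regions. The largest decrease was at 14309001, which scored 188 and 171 in WT, 79 and 89 in arid2/3/4, 146 and 175 in epcr1/2 and 129 and 95 in nrpe1. It changed by -0.63 in arid2/3/4 (SE 0.152, limma adjusted p = 6.608e-05) and by -0.42 in nrpe1 (adjusted p = 0.01234). The 2 regions lowered in epcr1/2 were those at 14297501 and 14013001. Without WT replicate 1 the 6 became 3 and the 2 became 1, and the 2 became 4 without WT replicate 2 and 0 without epcr1/2 replicate 1. The region most raised in nrpe1, at 14192001, with 31.4% G and C, had a mean score of 160 ± 26.2 (SD, n = 2) in WT and 339 ± 100.4 in nrpe1 (0.77, limma adjusted p from the fit over all regions 2.072e-05). The next 3, at 14487001, 14510001 and 15035501, were raised by 0.49 each.

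Set against hda6, both PEAT mutants had higher scores in the repeat classes. In the limma fit 347 core regions were higher in arid2/3/4 than in hda6 and 11 lower, where 34.5% of all tested regions were higher and 8.71% lower. For epcr1/2 against hda6 the counts were 466 higher and 0 lower, against 50.6% and 3.58% of all tested regions. At an unadjusted limma p under 0.05, 1 region was lower in epcr1/2 than in hda6. The 343 regions of the 159-base class were all higher in epcr1/2 than in hda6 (median difference 1.27), and 234 of them were higher in arid2/3/4 than in hda6 (0.50). The 234 ranged from 120 to 326 over the alternatives that did not leave out 1 library. Leaving out 1 library at a time, the 0.50 ranged from 0.36 to 0.64. Of the 29 satellites, 26 were higher in epcr1/2 than in hda6 (1.56). In arid2/3/4 26 were higher than in hda6 and 3 lower (1.71). In the other regions the median differences were 0.41 and 0.37, and their direction depends on the scaling of libraries. With a common median they became -0.22 for epcr1/2 and 0.02 for arid2/3/4, and with quantile normalization -0.19 and -0.07. Lowered regions of the core in epcr1/2 against hda6 numbered 123 and 78 under these scalings, of which 120 and 77 were other regions. For arid2/3/4 against hda6 the 347 became 85 without arid2/3/4 replicate 2, 113 without hda6 replicate 1 and 122 without hda6 replicate 2, and the 11 became 1 without arid2/3/4 replicate 1 or hda6 replicate 2.

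The comparisons with WT share the same pair of WT libraries, so the calls in different mutants are not independent. Side by side, 183 regions were raised in epcr1/2, lowered in hda6 and not called in arid2/3/4 and nrpe1, and 182 of them were of the 159-base class. A further 173 were raised in arid2/3/4, epcr1/2 and hda6 and not called in nrpe1. In 157 the only call was a rise in epcr1/2, and 153 of these were of the 159-base class. The groups of 183 and 157 differ only in the hda6 call, whose lowered count depends on single libraries as given above. In 23 the siRNAs were raised in arid2/3/4 and epcr1/2, lowered in hda6 and not called in nrpe1. The share of each pattern over all tested regions is not given, so these counts describe the core alone.

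The cores of the other chromosomes also held satellite regions but few or no 159-base regions. All 43 satellite regions of the chromosome 2 core, all 10 of chromosome 3, all 186 of chromosome 4 and 256 of 258 of chromosome 5 were raised in arid2/3/4. The only other core with 159-base regions was that of chromosome 4, with 14. A median of 35.8% of their 24-base words also occurred in the chromosome 1 regions of that class, so reads may in part be shared between them. Of the 14, 1 was raised in arid2/3/4 (median log2 change 0.07), 14 in epcr1/2 (0.82) and 0 in nrpe1, and 8 were lowered in hda6 (-0.38). The share of a core that was raised in arid2/3/4 was 222 of 584 on chromosome 1, 101 of 141 on chromosome 2, 156 of 189 on chromosome 3, 312 of 348 on chromosome 4 and 505 of 539 on chromosome 5. Raised in epcr1/2 were 114 of 141, 155 of 189, 324 of 348 and 507 of 539 regions of cores 2 to 5. Of their regions with neither unit, 49 of 98, 128 of 179, 115 of 148 and 215 of 281 were raised in hda6. Differences between chromosomes were not tested.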

How the data were processed

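Whole-seedling total RNA was used for the small RNA libraries, per the labels' protocols. The authors mapped reads to TAIR10 with Bowtie 0.12.2, per the submitters' processing notes, and deposited 1 table per replicate with a whole-number score for each genotype in regions of 500 bases. These deposited scores were taken to be abundances that the authors normalized and then rounded, and not counts. Their scaling, the read lengths used, the treatment of reads mapping to several places and the choice of regions are not stated in the labels or files, so depth is unknown and no counting interval is given.

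The members and lists were chosen with earlier results of these data known. File coordinates were changed to count from 1. Sequence and genes came from RefSeq TAIR10.1, whose chromosome lengths fit the files. Repeat classes required at least 50% of a region to align to a pair of units with BLAST 2.17.0+. Families are sets of regions with at least 50% of 24-base words in common, and mostly single-copy means that at least 80% of words occur once.

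Tests used limma 3.58.1 in R 4.3.3 on log2(score + 89), with 89 the 25th percentile of scores above 0. This understates changes of low regions. The model held genotype and replicate over all 12 libraries, with the replicate as a block because each replicate has its own table, and a trended prior. P-values were adjusted over 4213 regions. Whether replicates were separate cultures is not labelled, and p-values thus reflect the spread of these samples alone, possibly technical. That spread is not the region's own. The prior had infinite degrees of freedom beside 5 residual ones, so each region took the spread fitted at its score level. The nrpd1 libraries enter it, and their scores near 0 vary little once 89 is added. The regions named were, for each mutant, the 4 raised and 4 lowered regions with the largest change, the 5 with the highest WT score, the 3 nearest 15 Mb, the 3 most different each way between arid2/3/4 and epcr1/2, the 3 most single-copy and the longest runs. Regions outside this rule, the AT-rich group, the partial satellites and the satellite block were picked after their values were seen. Alternatives changed the pseudocount, low-score filter, scaling, block, libraries fitted, prior and libraries left out.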

Additional observations from a re-analysis of the deposited data

Results flagged for a closer look

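The first deposited table listed 168 core regions that the second did not, and the comparisons above do not use them. They were noticed because the median scores of both PEAT mutants were above that of WT. In replicate 1 the median score of these regions was 114 in WT, 233 in arid2/3/4 and 220.5 in epcr1/2. It was 187 in hda6, 142.5 in nrpe1 and 1 in nrpd1. The epcr1/2 score was above that of WT in 164 of the 168 regions, the hda6 score in 153, the arid2/3/4 score in 130 and the nrpe1 score in 118. Of the 168, 145 carried neither repeat unit and 7 were of the 159-base class. With 1 library of each genotype these values have no replicate check and were not tested.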

How the results depend on the processing

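Scaling to a common median moved the median log2 change over all tested regions from -0.01 to -0.30 in arid2/3/4, from 0.48 to -0.05 in epcr1/2 and from -0.09 to 0.17 in nrpe1, and left it at -0.34 in hda6, and quantile normalization gave -0.10, 0.14, 0.34 and -0.17. With the common median and with quantile normalization, the lowered regions numbered 180 and 194 in arid2/3/4, and 9 and 7 in epcr1/2. The raised regions numbered 558 and 565 in nrpe1. In arid2/3/4 against epcr1/2, 131 and 13 were higher. In arid2/3/4 against hda6, 222 and 156 were higher and 41 and 60 lower, and in epcr1/2 against hda6, 123 and 78 were lower. With the common median 359 regions were lowered in hda6, and with quantile normalization 6 in nrpe1. The core's median log2 ratio became -0.077 in arid2/3/4 with the common median, and in the same order 0.32 and 0.42 in epcr1/2 and 0.54 and 0.59 in nrpe1. The cause of these shifts was not tested.

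A pseudocount of 8.9 gave 1 lowered region in epcr1/2, 5 raised in nrpe1 and 1 higher in arid2/3/4 than in epcr1/2, and median ratios of 1.15 in epcr1/2 and -0.42 in hda6. Leaving out regions in the lower quartile of mean score tests fewer regions and left 2 lowered in arid2/3/4, 1 lowered in epcr1/2, and 7 raised and 6 lowered in nrpe1. Fitting only the genotypes compared gave 0 lowered in epcr1/2 in limma, 77 raised in nrpe1, 38 higher in arid2/3/4 than in epcr1/2, and 4 lower in epcr1/2 than in hda6. A prior without a trend gave 1, 36, 8 and 1 for the same counts.

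Leaving out 1 library at a time, raised counts ranged from 206 to 242 in arid2/3/4, 563 to 575 in epcr1/2, 1 to 378 in nrpe1 and 79 to 190 in hda6. Lowered counts ranged from 3 to 9, 0 to 4, 6 to 16 and 6 to 288. Higher and lower counts ranged from 1 to 6 and 190 to 364 for arid2/3/4 against epcr1/2, from 85 to 431 and 1 to 11 for arid2/3/4 against hda6, and from 393 to 526 and 0 to 3 for epcr1/2 against hda6. The core's median ratio ranged from 0.08 to 0.37 in arid2/3/4, 0.81 to 1.03 in epcr1/2, 0.09 to 0.36 in nrpe1 and -0.34 to -0.24 in hda6.

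Without the replicate block 220 regions were raised in arid2/3/4, 572 in epcr1/2 and 177 in hda6, and 212 were lowered in hda6. Deviations of same-numbered libraries correlated at -0.16 to 0.64 over 15 pairs of genotypes, with 9 over 0.1, and the 4 highest, 0.64, 0.50, 0.45 and 0.36, were arid2/3/4 with hda6, epcr1/2 with hda6, WT with hda6 and WT with arid2/3/4. Of the 6 at 0.1 or under, 4 involve nrpd1. Since not every pair was over 0.1, the numbers were taken to mark only a shared table. Over 35 results on named regions and 659 alternatives, 605 kept direction and call, 54 lost the call and 0 reversed. With 36-base words the share of regions with a median of 1 copy was 13.0%. Depth is unknown, and low scores cannot be given a counting limit.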

Other observations

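Agreement between the replicates over the 584 regions was high in each genotype with appreciable scores. Spearman's correlation across regions, which are not independent replicates and share reads, was 0.89 in WT, 0.98 in arid2/3/4, 0.97 in epcr1/2 and nrpe1, 0.93 in hda6 and 0.24 in nrpd1.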
